A study of Laguncularia racemosa with 22 samples.

Results

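The comparison described here is that of leaves of the letter Q at 36 h with leaves of the same letter at 12 h, in seedlings of *Laguncularia racemosa*, the white mangrove. Its 6 libraries, 3 at each time, were taken by the letter and time in their titles from 22 libraries in 8 groups, and their values had no part in the choice. All 6 are wild type (wt) leaf libraries from seedlings aged 8 weeks, labelled control 12h and control 36h. The libraries of the letter P that stand beside them are wt leaves of the same age, 3 labelled freezing temperature for 12 h and 2 labelled the same with 24 h of recovery. Libraries of both letters at 0 and 3 h, also from seedlings aged 8 weeks, are used below as well, and those of Q are labelled control too. The protocol text is the same for both letters. It describes seedlings raised at 30 °C by day and 28 °C by night with 16 h of light and 8 h of dark, held at 0 °C, and in the last group returned to 30 and 28 °C for 1 day. It does not say which of these steps a Q seedling went through. Seeds were collected at different places, and no label ties a letter to a place. No label says that a library pools plants or that libraries come from separate plants, so p-values measure only the spread between these libraries, which may be technical.

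Levels of leaf transcripts follow the hour of day through light and the circadian clock, and they follow temperature, since plants raise and lower large sets of transcripts in the cold and again on rewarming. Samples 24 h apart fall at the same hour of a day and night cycle if their times count from 1 start. The labels of 12 and 36 h are 24 h apart, but they give no clock time. Mangroves such as *L. racemosa* grow on warm tidal shores and are known for damage by frost. These sentences are background, and the files do not test them here.

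Gene names are not paired with the IDs in the table, which have the form that the assembler Trinity gives. Genes are therefore grouped by how they moved, 4 are named by ID, and no function is given to any of them. For the same reason the leaf label could not be set against marker genes, and no sequence was at hand to print.

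Total counts of the 6 libraries ran from 14921916 to 17340614. A level of 1 CPM (counts scaled to a common library size, here by the TMM method) stands for about 15 to 17 counts before scaling. Of 54696 genes listed, 21694 passed the filter on low counts. The 3 libraries of each time lay closer to each other than to any library of the other time. The root-mean-square distance per gene, in log2 CPM, was at most 0.857 between libraries of 1 time and at least 0.956 between times. Its mean was 0.801 among the 12 h libraries, 0.747 among the 36 h libraries and 1.09 between them. The excess of 0.32 had a one-sided exact permutation p of 0.1, the smallest that 10 divisions of 6 libraries can give. On a principal component analysis of the 6 libraries the first component held 51% of the variance and set the times apart, at -77.7 to -47.5 for 12 h and 55.7 to 73.8 for 36 h. Replicate 3 of 12 h lay apart from its group on the second component (15.9% of the variance), at -62.4 against 6.01 and 49.1. Its mean distance to the other 12 h libraries was 0.822, close to the 0.808 of replicate 1 and above the 0.773 of replicate 2. Results that move without replicate 3 are marked below.

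Between 12 and 36 h, 2717 genes rose and 2471 fell in Q, by edgeR's quasi-likelihood test at a Benjamini-Hochberg adjusted p under 0.05. That is 23.9% of the genes tested, 12.5% higher and 11.4% lower. The median log2 change was 0.91 among the genes that rose and -0.82 among those that fell, with or without genes at 0 set to their bound, against 0.04 over all genes. Most changes were modest. At least a 2-fold change was reached by 1192 of the rises and 1025 of the falls, at least 4-fold by 421 and 476, and at least 16-fold by 78 and 128. The numbers past 4-fold rest on genes of few counts and on the test: a filter of 10 counts in 11 libraries left 236 and 293, and a test against a 2-fold minimum change 89 and 115. Of the rises 97.4%, and of the falls 93.7%, kept the 3 libraries of 12 h wholly apart from those of 36 h, a separation that 23.4% of all genes tested showed upward and 19.4% downward. Rises made up 52.4% of the calls, and 63.2% when libraries were scaled by their totals alone. Leaf tissue was measured in bulk, so fewer cells of a type and less RNA per cell cannot be told apart in any of these values.

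**Figure D1:**
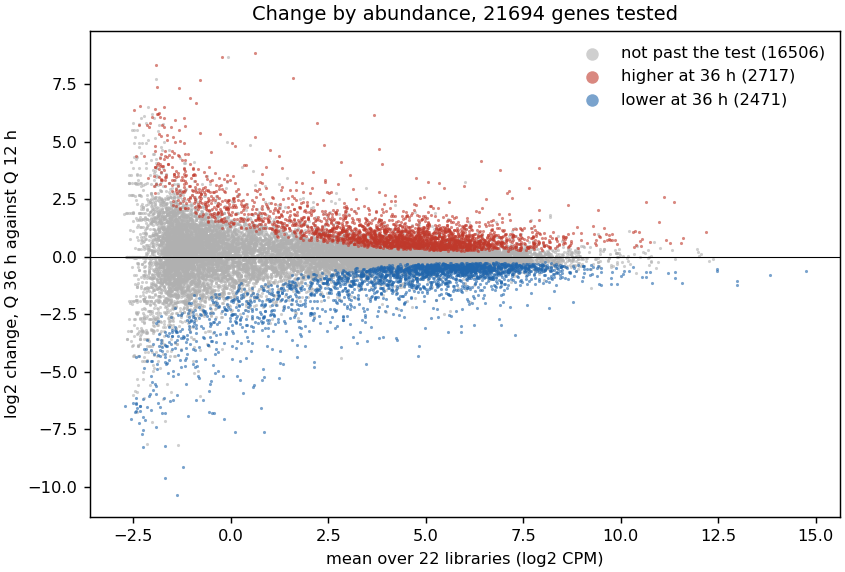
Each point is 1 of the 21694 genes tested, with its mean log2 CPM over 22 libraries on the horizontal axis and its log2 change from 12 to 36 h in Q on the vertical axis; red genes rose, blue genes fell and grey genes did not pass the test. Large changes lie among genes of few counts, and genes of many counts pass the test with small changes.

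How many genes passed, and by how much they moved, went with the number of reads a gene drew. Genes were divided in quartiles of mean log2 CPM, which orders them by counts and not by molecules, because transcript lengths are not given. In the lowest quartile, under a mean log2 CPM of -0.33, 8.54% of genes passed, with a median absolute log2 change of 3.48. In the highest, above 5.15, 37.1% passed, with a median of 0.6. The median standard error of a log2 change was 0.92 in the lowest quartile and 0.14 in the highest, so small changes of genes with few counts were not detectable at this depth. Changes of at least 4-fold numbered 436 and 354 in the lower quartiles, and 64 and 43 in the upper ones. Direction differed too: rises were 59.1% of the calls in the third quartile and 45.6% in the highest.

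Measured as a share of all counts, the genes that fell were the weightier group at 12 h. The 2471 genes that fell held 34, 33 and 33.2% of the counts in the 3 libraries of 12 h and 20.7, 21.4 and 20.7% in those of 36 h. The 2717 genes that rose held 10.6, 10.8 and 10.7% at 12 h and 21.8, 19.6 and 20.7% at 36 h. These genes were chosen on the 6 libraries, so the difference between the times restates the choice. The libraries that played no part in it put the 36 h values in place. At 0 and 3 h of Q the genes that rose later held 18.1 to 20.3% and the genes that fell later 22.9 to 25.8%, close to their shares at 36 h and far from those at 12 h. In P the same 2717 genes held 18.2 to 20.9% at 0 and 3 h, 11 to 12.3% at 12 h and 17.8 and 18% at 36 h. The 2471 genes held 23.3 to 24.4%, then 32.6 to 33.7%, then 22.1 and 20.5%.

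**Figure D2:**
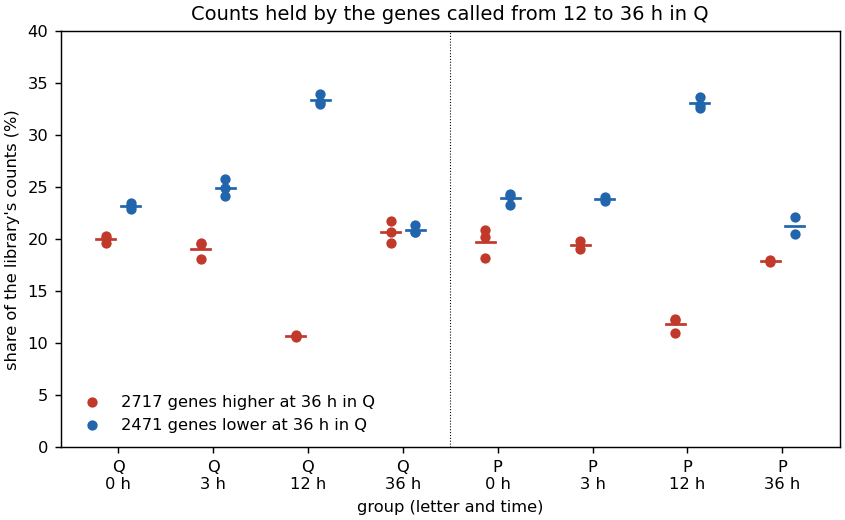
The vertical axis is the share of a library's counts, in percent, held by the genes that rose (red) and fell (blue) from 12 to 36 h in Q; each point is 1 library, bars are group means, and groups are ordered by letter and time. In both letters the 12 h libraries stand apart from the rest, with 10.6 to 12.3% for the genes that rose later and 32.6 to 34% for those that fell later.

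Falls outnumbered rises among the 10 genes that draw the most reads, while the first 100 were near even. Of the 10 genes with the highest mean CPM over all libraries, 6 fell and 1 rose in Q, and together the 10 went from 11.3 to 12% of the counts at 12 h to 7.97 to 8.52% at 36 h. The gene with the most counts stood at 34867, 32346 and 38420 CPM in the 3 libraries of 12 h and at 20119, 24685 and 23650 CPM at 36 h. Its groups did not overlap, with a log2 change of -0.63, a standard error of 0.18 and 0.0159 for edgeR's adjusted p. The third gene in this order fell further, from 20381, 18229 and 20085 CPM to 8266, 8971 and 7830 CPM (log2 change -1.23, standard error 0.25, adjusted p 0.00159 in edgeR). The gene that rose was the ninth, from 3019, 2786 and 3744 CPM to 6263, 6394 and 7436 CPM (log2 change 1.07, standard error 0.27, adjusted p 0.00703 in edgeR). In P its log2 change was 0 and did not pass the test, and the difference between the letters did not pass either (adjusted p 0.0831 in edgeR). Since these genes were picked by rank after values were seen, and no name goes with them, no ID is given. Among the 100 genes with the most counts, 23 rose and 24 fell, where 12.5 and 11.4% of all genes did. Genes of many counts pass more often: in the highest quartile of mean log2 CPM, 917 of 5424 genes rose and 1095 fell.

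TRINITY_DN2620_c0_g1 rose the most among the genes that met the rule for naming. That rule asks for no overlap between the times, so the separation of libraries in the 4 named genes restates it. It stood at 0.258, 0.588 and 0.475 CPM in the 3 libraries of 12 h, from 4 to 9 counts each, and at 36.8, 20.1 and 20 CPM at 36 h. Every 36 h library was far above every 12 h library, with a log2 change of 5.84, a standard error of 0.60 and an adjusted p of 4.93e-06 in edgeR. At 0 h it had been at 6.9, 4.6 and 3.48 CPM, and at 3 h at 10.1, 12.7 and 5.36 CPM, so the 36 h libraries also lay above every earlier library of Q. In P it went from 1, 1.51 and 1.24 CPM at 12 h to 7.76 and 5.2 CPM at 36 h, within the range of its P libraries at 0 h, 2.99 to 13.9 CPM. The change was larger in Q by a log2 of 3.47 (standard error 0.83, adjusted p 0.00939 in edgeR). Leaving out either P library of 36 h left 1 there, and this difference was then 3.75 without replicate 1 and 3.18 without replicate 2.

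TRINITY_DN2366_c0_g1 rose in Q to a level that varied between libraries. Its values were 1.16, 0.327 and 12.5 CPM at 12 h, the last in replicate 3, and 258, 105 and 47.3 CPM at 36 h. The groups did not overlap, and the log2 change was 4.85 with a standard error of 1.07 (adjusted p 0.00476 in edgeR). When replicate 3 of 12 h was left out the log2 change was 7.47, and with the 6 libraries fitted alone it was 4.82 with an adjusted p of 0.0605, past the threshold no longer. Libraries of Q at 0 and 3 h held 0.272 to 4.73 CPM. In P the same gene went from 0.077, 1.36 and 0.413 CPM at 12 h to 2990 and 3150 CPM at 36 h, the larger change of both letters (log2 difference Q minus P -7.42, standard error 1.69, adjusted p 0.00955 in edgeR). Without replicate 3 of Q at 12 h that difference was -4.82, with an adjusted p of 0.116.

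TRINITY_DN60272_c0_g1 fell the most among the genes that met the same rule. It stood at 109, 88.8 and 6.77 CPM at 12 h and at 0.818, 0.227 and 0.461 CPM at 36 h, again with replicate 3 of 12 h apart from its group. No 36 h library reached the lowest 12 h library, and the log2 change was -7.08 with a standard error of 1.32 and an adjusted p of 0.00166 in edgeR. At 0 and 3 h of Q it lay between 0.0543 and 3.3 CPM, so the high values belonged to 12 h. In P no library of any time exceeded 0.855 CPM, and both 3 h libraries had 0 counts. The change from 12 to 36 h in P was not past the test (log2 change -0.22, standard error 2.11), nor was the difference between the letters, at a log2 of -6.86 with a standard error of 2.86 and an adjusted p of 0.133 in edgeR, against 0.00967 in DESeq2.

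TRINITY_DN9365_c0_g1 had much the same profile. It stood at 109, 49.8 and 7.96 CPM at 12 h and at 0.378, 0.341 and 0.791 CPM at 36 h. The order of the 12 h libraries was the same as for TRINITY_DN60272_c0_g1, and the groups did not overlap, with a log2 change of -6.78, a standard error of 1.36 and an adjusted p of 0.00268 in edgeR. At 0 and 3 h of Q it ranged from 0 counts to 4.33 CPM, and in P no library exceeded 0.534 CPM. The difference between the letters was not past the test at a log2 of -4.44, with a standard error of 6.87, and no P library held more than 10 counts.

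**Figure D3:**
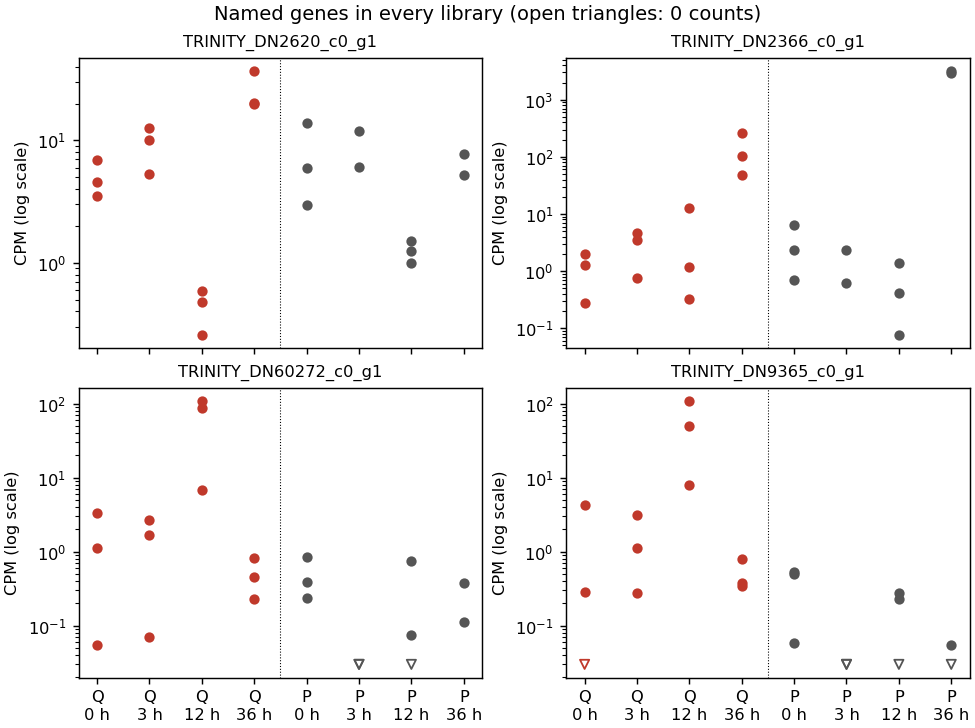
Each panel is 1 named gene, with CPM on a log axis for every library by letter and time; red points are Q, grey points are P, and open triangles at the foot of a panel are libraries with 0 counts. The upper pair was highest at 36 h among the Q libraries, the lower pair at 12 h, and TRINITY_DN2366_c0_g1 reached 2990 and 3150 CPM in P at 36 h.

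The 421 genes that rose at least 4-fold were chosen for high values at 36 h and low values at 12 h in Q, so that part of their profile restates the choice. Their median level was 2.01, 1.71 and 1.71 CPM in the 3 libraries of 36 h and 0.258, 0.196 and 0.238 CPM at 12 h. At 0 and 3 h of Q it was 0.618 to 0.978 CPM, between the levels of 12 and 36 h. Libraries of P showed 0.379 to 0.413 CPM at 12 h and 1.52 and 1.59 CPM at 36 h. Replicate 1 of 36 h was the highest library for 43% of these genes, and without it 280 genes passed the same limits. Of the 162 tested genes with 0 counts in all 3 libraries of 12 h, 26 were among the rises. With 3 counts over the group taken as the floor, the median gene of the 26 was at least 8-fold higher, and the most raised at least 37.6-fold higher.

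The 476 genes that fell at least 4-fold had few counts in most libraries. Their median level was 3.58, 4.21 and 2.05 CPM in the libraries of 12 h, the last again replicate 3, and 0.378, 0.37 and 0.33 CPM at 36 h. At 0 and 3 h of Q it was 0.598 to 1.14 CPM, between the levels of 12 and 36 h. These genes were chosen for high values at 12 h and low values at 36 h in Q, so the order of those times restates the choice. In P it was 0.886 to 1.31 CPM at 12 h and 1.29 and 1.01 CPM at 36 h. In 9.24% of the 476 genes a single 12 h library held over 2 of every 3 CPM of its group. Of the 172 tested genes with 0 counts in all 3 libraries of 36 h, 38 were among the falls. By the same floor the median gene of the 38 was at least 11.9-fold lower, and the most lowered at least 158-fold lower.

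Where the 36 h leaves stood relative to the start can be read from the changes side by side. The comparisons with 0 h share the 12 or 36 h libraries with the comparison above, so no overlap is given. Genes that rose from 12 to 36 h had a median log2 change of -0.89 from 0 to 12 h and of 0.01 from 0 to 36 h, with quartiles of -0.42 and 0.6 for the latter. Genes that fell had medians of 0.57 and -0.26, with quartiles of -0.87 and 0.13 for the latter. The medians of all genes were -0.02 and 0. The genes were chosen on their 12 and 36 h values, which pulls these medians apart, so they are a description. As whole libraries, the 36 h leaves were nevertheless no nearer to 0 h than to 12 h: their mean distance was 1.22 from 0 h, 1.17 from 3 h and 1.09 from 12 h. The 12 h leaves lay further from the early times, at a mean of 1.31 from 0 h and 1.23 from 3 h. For 0 h the single distances overlapped, 1.19 to 1.39 for 12 h and 1.12 to 1.32 for 36 h.

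The genes that had moved by 12 h in P were called on libraries that Q does not share. From 0 to 12 h, 3595 genes fell in P, 16.6% of those tested, and 3368 rose, 15.5%. Of the 3595, 38.7% rose from 12 to 36 h in Q and 4.7% fell, where 12.5 and 11.4% of all genes did. Of the 3368, 30% fell in Q and 4.54% rose. The median log2 change in Q was 0.42 for the former and -0.29 for the latter, against 0.04 for all genes. Seen from Q, these genes were 51.2% of its rises and 41% of its falls. Among genes that had fallen at least 4-fold in P, 659 in all, the share that rose in Q was 25.5%, and 5.77% fell. Among the 852 that had risen at least 4-fold, 26.3% fell and 2.93% rose.

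**Figure D4:**
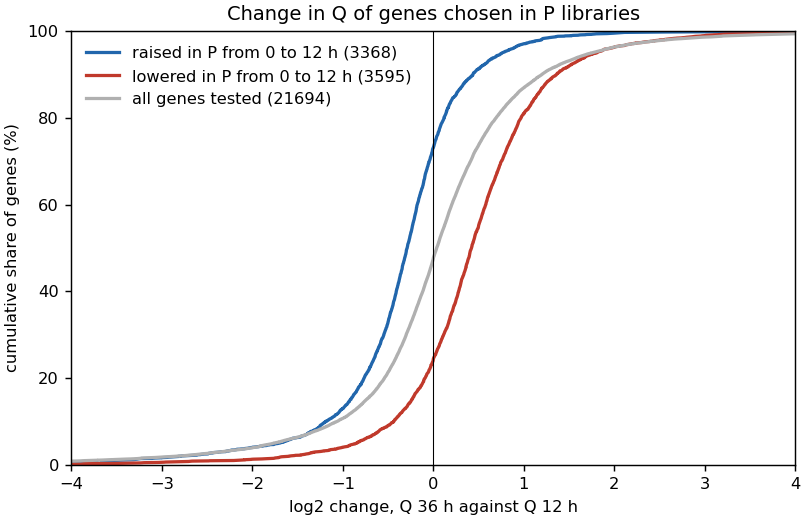
The curves give the cumulative share of genes, in percent, by their log2 change from 12 to 36 h in Q, for 3368 genes raised in P from 0 to 12 h (blue), 3595 genes lowered there (red) and all 21694 genes (grey). The blue curve lies to the left of the grey one and the red curve to the right, with medians of -0.29, 0.42 and 0.04; the axis is cut at -4 and 4.

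The genes that changed early in Q were again called on other libraries, those of 0 and 3 h. From 0 to 3 h, 1281 genes had risen, 5.9% of those tested, and 828 had fallen, 3.82%. Of the 1281, 24.1% fell from 12 to 36 h, against 11.4% of all genes, and 10.5% rose, near the 12.5% of all genes. Of the 828, 26.8% rose and 13.9% fell, the latter near the share of all genes. These were 12.5% of all falls and 8.17% of all rises. The median log2 change from 0 to 3 h was -0.1 for genes that rose later and 0.04 for those that fell later, against -0.02 for all genes.

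The same interval in P, where the labels name recovery from cold, is set beside Q here. In P 33.3% of genes passed the test, 17.5% higher and 15.8% lower. By how much P had more calls than Q depended on the fit. In the main fit P had 7217 and Q 5188. P has only 2 libraries at 36 h, so no count is given with 1 of them left out. With only the libraries compared in each fit P had 5292 and Q 5246. Changes of at least 4-fold were reached by 38.4% of the rises in P, 1456 genes, against 15.5% in Q. For falls the order was the other way, 12% in P, 412 genes, against 19.3% in Q. Of the genes that rose in Q, 43% also rose in P and 3.2% fell there, and of the genes that fell in Q, 51.5% also fell and 8.17% rose. As shares of the lists of P, those moving the same way were 30.8% of its rises and 37.2% of its falls. Over the genes that rose in Q the median log2 change was 0.91 in Q and 0.53 in P, and over those that fell -0.82 and -0.62. The genes were called in Q, so part of this gap follows from the choice.

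Whether the change itself differed was tested as an interaction of letter and time. It did for 3086 genes, 14.2% of those tested, 1400 with the higher change in Q (6.45%) and 1686 with the lower (7.77%). With library totals alone, 29.7% of these calls were higher in Q in place of 45.4%. The number was 2240 to 3114 when 1 library was left out of a group of 3. None is given without a library of P at 36 h, where 1 would remain. Of the 5188 genes called in Q, 1174 passed this test and 4014 did not, which does not show that the latter changed alike. Among the 1686, the median log2 change was -0.43 in Q and 1.78 in P. Of these, 1371 had risen in P, as 17.5% of all genes did, and 1129 were not called in Q. Among the 1400, the medians were 0.22 and -0.71. Of these, 962 had fallen in P, as 15.8% of all genes did, and 462 had risen in Q, as 12.5% did. Both lists were chosen on the difference itself, so these medians and calls largely restate the choice.

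Large changes of Q were followed into P. Of the 421 genes that rose at least 4-fold in Q, 185 (43.9%) rose in P and 234 were not called there; the remaining 2 fell, and no ID is given for them. Of the 476 that fell at least 4-fold, 99 (20.8%) fell in P, 88 rose, about the 17.5% of all genes that did, and 289 were not called. The interaction passed for 51 of the 421, a share near the 14.2% of all genes, and for 200 of the 476. The median log2 change of the 476 was -3.04 in Q and -0.42 in P, and that of the 421 was 2.84 and 1.73. Both lists were chosen on Q libraries that the interaction also uses, so part of these shares and gaps follows from the choice. The unequal shares of the lists were not tested against each other. Genes that fell at least 16-fold in Q numbered 128, of which 18 fell and 21 rose in P, about the shares of all genes tested, 15.8 and 17.5%.

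**Figure D5:**
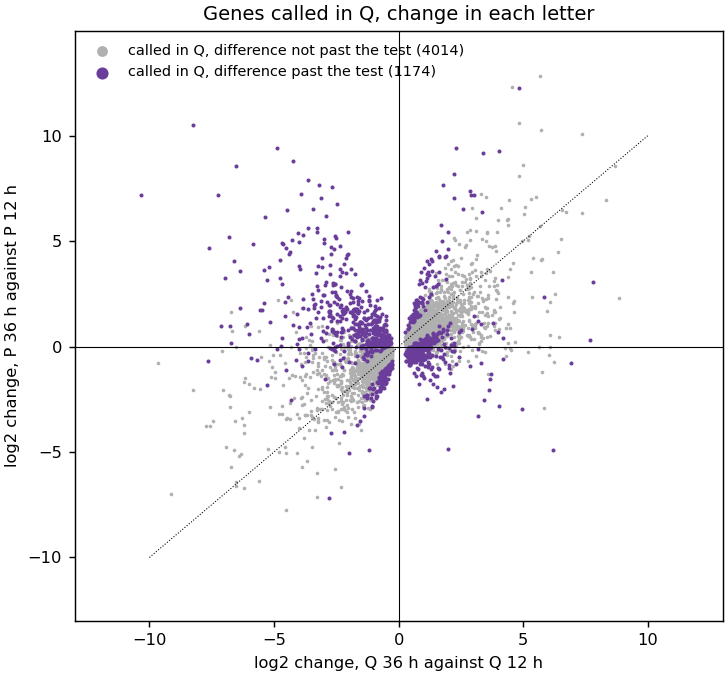
Each point is 1 of the 5188 genes called in Q, with its log2 change from 12 to 36 h in Q on the horizontal axis and in P on the vertical axis; purple marks the 1174 genes whose change differed between the letters and the dotted line marks equal change. Purple points at the upper left fell in Q and lie above 0 in P.

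Some genes were called in opposite directions. There were 202 that fell in Q and rose in P, 8.17% of the falls in Q, where 17.5% of all genes rose in P. A further 87 rose in Q and fell in P, 3.2% of the rises in Q, where 15.8% of all genes fell in P. All of them passed the interaction test, which calls in opposite directions nearly fix in advance. The first group stood at a median log2 CPM of 1.77 at 0 h, 2.28 at 3 h, 3.46 at 12 h and 1.79 at 36 h in Q. In P it stood at 1.87, 2.36, 2 and 4.32. The medians of the letters lay close at 0 and 3 h, and the highest level came at 12 h in Q and at 36 h in P. The second group was at 5.73, 5.77, 5 and 5.58 in Q and at 5.61, 5.63, 5.51 and 4.81 in P, lowest at 12 h in Q and at 36 h in P. The values at 12 and 36 h chose both groups and are a description.

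Assembled genes of 1 Trinity cluster, which share sequence, did not always move together. Among 2175 clusters with at least 2 genes tested, 224 had at least 2 genes called in Q. All called genes rose in 75 of them and fell in 68, while 81 held genes of both directions. Rises were 52.4% of all calls, so called genes taken without regard to cluster would also often differ in direction. Whether genes of 1 cluster differ more or less often than that was not tested. Counting can split reads between such genes, and its part in these opposite calls was not tested. Genes alone in their cluster were 3625 of the 5188 called, and the 4 named genes are among them.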

How the data were processed

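The deposited table holds raw counts per assembled gene and library, whole numbers that the authors did not normalize as far as they show. FastQC, HISAT2 and featureCounts are named in the submitters' processing notes; versions, reference and strand are not given in the sources used here. All 22 value columns matched a sample title and 0 did not. Genes and lists were chosen with earlier results of these data known.

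The test was that of edgeR 4.0.16 (R 4.3.3): filterByExpr with a minimum count of 10, TMM scaling, dispersions over all 22 libraries in 8 groups (common biological coefficient of variation 0.26), the robust quasi-likelihood test, and Benjamini-Hochberg adjustment within each comparison at 0.05. A group of 2 libraries is assumed to vary like the others. Log2 CPM has a prior count of 2. Fitted log2 changes of genes at 0 depend on edgeR's prior count. The floor is 3 counts over a group and covers counting error only. Libraries of a group were compared in pairs: the chi-square per gene was 18.5 to 33.1, so none is a repeat deposit of another. The fit was checked on simulated data.

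Named genes are the 2 with the largest rise and the 2 with the largest fall among genes called in Q, averaging 10 CPM or more in the 6 libraries, no overlap between times and no other ID in their cluster; 2401 genes met these conditions. Lists of genes by function were not used, since the files pair no names. The alternatives were RLE scaling, library totals, no filter, a stricter filter, DESeq2 1.42.0, a 2-fold minimum change (glmTreat), fits of fewer groups, thinned counts, counts summed over clusters, replicate blocks and leaving out each library.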

Additional observations from a re-analysis of the deposited data

Results flagged for a closer look

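A difference between the letters in the change from 12 to 36 h, tested as an interaction, marks 3 results. It was found for 3086 genes. TRINITY_DN2620_c0_g1 had a change larger in Q by a log2 of 3.47. TRINITY_DN2366_c0_g1 had a Q minus P difference of -7.42, with 137 ± 109 CPM (SD, n = 3) in Q and 3070 ± 110 CPM (SD, n = 2) in P at 36 h. Groups here hold 2 or 3 libraries, too few to test a single library for standing apart from its group.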

How the results depend on the processing

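Calls in Q numbered 4062 to 5838 under each alternative that keeps all 6 libraries and sets no minimum change, and 4327 of the 5188 genes were called the same way with the 6 libraries alone. A tested minimum of 2-fold (glmTreat) left 259 genes in Q, 1463 in P and 625 for the interaction, 89 higher and 115 lower by at least 4-fold, and 2.76% and 7.56% as the shares of genes raised or lowered in P that moved the other way in Q; it asks more of each gene by construction. The filter of 10 counts in 11 libraries left 236 genes higher and 293 lower by at least 4-fold, having removed genes of few counts.

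Leaving out 1 library of the groups compared at a time gave 3597 to 4305 calls in Q, 4267 to 6662 in P and 1515 to 3114 for the interaction. It gave 280 to 369 genes higher and 334 to 510 lower by at least 4-fold, shares of 22.3 to 33.3% and 28.7 to 41.6% for genes chosen in P, and a distance excess of 0.291 to 0.378. The group of P at 36 h would keep 1 library, so no count is given for it. With library totals alone, 70% of the calls in P were higher in place of 52.5%. Each named gene kept its direction in Q under the alternatives that gave it a value; the stricter filter removed TRINITY_DN60272_c0_g1 and TRINITY_DN9365_c0_g1. TRINITY_DN2366_c0_g1 had an adjusted p of 0.0563 under the 2-fold minimum, and the difference of TRINITY_DN2620_c0_g1 between letters one of 0.0538; the cause of other lost calls was not tested.

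Replicate numbers are shared between times. Deviations of same-numbered libraries of Q had r of 0.06, -0.04 and -0.02 across genes, against -0.09 to 0.11 for other pairs. These values show no shared deviation, but they cannot exclude a pairing of small effect. A replicate block within each letter gave 4800 calls in Q, 6643 in P and 2717 for the interaction, and a block over all libraries 5015, 6929 and 2855.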
